A study of Mus musculus with 7 samples.

Results

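The genes described here are 5 fibroblast growth factor (FGF) ligands, Fgf1, Fgf2, Fgf7, Fgf10 and Fgf18, and 5 FGF receptors, Fgfr1, Fgfr2, Fgfr3, Fgfr4 and Fgfrl1, measured in sorted cells of mouse bone marrow. They were chosen by name, and every probe set whose only gene symbol was one of these names was taken, which gave 23 probe sets for the 10 genes (8 for ligands, 15 for receptors) out of 34945 probe sets for 18193 genes. A probe set is a group of short probes for 1 transcript or transcript group on the array. Cells were sorted by flow cytometry from the marrow of C57Bl/6J mice of wild-type genotype, 6 to 12 weeks old, and RNA from 1800 to 10000 of them was amplified and hybridised to Affymetrix Mouse Genome 430 2.0 arrays. The CD45-Lin-CD54+CD31-BP1+ population, labelled stromal cells, has 4 arrays, named stromal 1 to 4 here. The CD45-Lin-CD54-CD31+ population, labelled endothelial cells, has 3 arrays, named endothelial 1 to 3. Both populations were sorted as negative for CD45 and lineage markers, and there was no treatment. Whether the arrays of a population represent separate mice or sorts is not stated, and p-values therefore reflect only the spread among the arrays, which may be technical.

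FGFs are secreted proteins that bind receptor tyrosine kinases on the cell surface together with heparan sulfate, and the activated receptor signals through the adaptor FRS2 to RAS and ERK. Which ligand fits which receptor depends on alternative splicing of the third immunoglobulin-like domain: the IIIb forms of epithelia bind FGF7 and FGF10, and the IIIc forms of mesenchyme bind other ligands. In the skeleton, FGF18 and the receptors FGFR1, FGFR2 and FGFR3 regulate cartilage and bone growth, and FGF7 is a typical product of mesenchymal cells.

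Values are log2 expression levels as deposited, and a difference is the stromal mean minus the endothelial mean on that scale. Probe sets differ in how strongly they bind, so levels are compared between arrays and never between probe sets. A probe set was tested if it exceeded the array's 40th percentile (5.48 to 5.79) on 3 or more arrays. It was called if its limma adjusted p was under 0.05 and its difference at least 1 in size. A fold is given only where all 7 arrays lay above their own 40th percentile, since below it the floor of the arrays limits a difference. The array medians lay between 6.00 and 6.06 on the stromal and between 6.10 and 6.19 on the endothelial arrays. The 40th percentiles lay at 5.48 to 5.52 and at 5.68 to 5.79.

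The markers of the labelled cell types set the frame for these values. The 9 reticular stroma markers averaged 13.2 to 13.4 on the stromal arrays and 5.35 to 6.63 on the endothelial arrays, and 9 of 9 were called. The 10 pan-endothelial markers averaged 5.38 to 5.60 and 7.08 to 7.35, with 4 of 6 tested called toward the endothelial arrays, while Cdh5, Emcn, Tek and Tie1 were below the 40th percentile on all arrays. The 4 called were Esam (12.1 against 7.08 on the stromal arrays), Plvap (8.86 against 5.28), Kdr (8.71 against 6.63) and Pecam1 (8.41 against 4.93). Egfl7 and Stab2 were tested and not called. The markers of endothelium were thus in part high and in part near the floor on the arrays labelled endothelial. Megakaryocyte and platelet markers averaged 13.5 to 13.9 there and 5.68 to 8.54 on the stromal arrays (highest on stromal 4), and 8 of 8 were called. Pan-leukocyte markers averaged 11.02 to 11.84 on the endothelial arrays against 5.48 to 7.85. Among them Ptprc, the gene of the CD45 antigen used for depletion in both sorts, lay at 4.91 to 7.42 on the stromal arrays and at 9.36, 10.94 and 8.63 on endothelial 1 to 3 by 1422124_a_at (limma adjusted p = 0.00499). Erythroid markers averaged 7.60 to 8.45 against 6.38 to 7.29, and the ranges of neutrophil precursor markers (9.63 to 12.2 against 7.93 to 9.81) and of B lineage markers (7.41 to 9.30 against 6.94 to 7.89) overlapped. By gene, 4 of 6 tested neutrophil precursor markers were called endothelial and 0 stromal. Of 5 tested B lineage markers, 3 were called endothelial, 1 (Ebf1) stromal and 1 neither. Osteoblast markers, by contrast, averaged 9.83 to 10.6 on the stromal and 5.84 to 6.16 on the endothelial arrays (4 of 4 tested called), and 0 of 4 chondrocyte markers tested were called. The part of these other cell types in the results below was not tested. In bulk samples, fewer cells of a type and less RNA per cell cannot be told apart. The 18 probe sets for spiked-in hybridisation controls averaged 9.51 to 9.75 on 5 arrays and were brighter, at 11.33 and 11.37, on the remaining pair, endothelial 2 and 3.

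Promoter sequences are shown for the ligand and the receptors with the largest called differences, Fgf7, Fgfr2, Fgfr3 and Fgfrl1, because these genes were higher together on the stromal arrays. RefSeq's promoter table of the mouse build GRCm38.p6 matched 8 of the 10 genes with 9 windows (Fgfr3 has a pair of starts, of which the more upstream is printed), and Fgf1 and Fgfr1 had no entry. Each window is the 250 bases before the annotated start, written 5′ to 3′ on the gene's strand. They lie at chr2:126034408-126034657 on the plus strand for Fgf7, chr7:130266809-130267058 on the minus strand for Fgfr2, chr5:33721474-33721723 on the plus strand for Fgfr3 and chr5:108693979-108694228 on the plus strand for Fgfrl1. Capitals mark matches, on either strand, to any of 5 motifs: the TATA box TATAAA, the GC box GGGCGG, the CCAAT box CCAAT, the forkhead site GTAAACA and a palindromic pair of EBF half-sites.
Fgf7: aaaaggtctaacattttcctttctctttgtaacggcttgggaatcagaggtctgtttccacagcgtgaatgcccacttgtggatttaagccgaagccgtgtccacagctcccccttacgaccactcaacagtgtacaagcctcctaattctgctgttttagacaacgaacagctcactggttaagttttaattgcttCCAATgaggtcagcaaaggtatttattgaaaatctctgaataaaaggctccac
Fgfr2: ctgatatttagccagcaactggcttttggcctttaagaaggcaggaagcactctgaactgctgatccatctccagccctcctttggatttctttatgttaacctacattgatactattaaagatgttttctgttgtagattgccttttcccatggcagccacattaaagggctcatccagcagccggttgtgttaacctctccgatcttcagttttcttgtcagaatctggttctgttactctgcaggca
Fgfr3: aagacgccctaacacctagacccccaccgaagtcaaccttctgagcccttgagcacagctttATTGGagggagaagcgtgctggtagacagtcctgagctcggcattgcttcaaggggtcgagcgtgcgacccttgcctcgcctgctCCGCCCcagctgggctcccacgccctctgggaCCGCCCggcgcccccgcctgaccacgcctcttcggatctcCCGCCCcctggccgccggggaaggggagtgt
Fgfrl1: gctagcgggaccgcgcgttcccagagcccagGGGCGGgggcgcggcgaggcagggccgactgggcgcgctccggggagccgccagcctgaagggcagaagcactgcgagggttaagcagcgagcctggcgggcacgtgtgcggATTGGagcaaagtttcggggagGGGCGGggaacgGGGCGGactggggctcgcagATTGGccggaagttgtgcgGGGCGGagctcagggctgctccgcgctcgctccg

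These promoters differ widely in base composition although the genes were called in the same direction. The Fgf7 window held 6 CpG dinucleotides and 43.6% G or C, and the Fgfr2 window 2 CpG and 44%. The Fgfr3 window held 19 CpG and 66.8%, and the Fgfrl1 window 30 CpG and 73.6%. Over all 32851 windows of the table the median was 6 CpG, with quartiles of 2 and 16. Fgf7 thus lay at the median, Fgfr2 at the lower quartile and Fgfr3 and Fgfrl1 above the upper one. The GC box matched 3 times in the Fgfr3 window and 4 times in the Fgfrl1 window, and not in the Fgf7 or Fgfr2 window; it occurs in 32.7% of all windows. CCAAT matched 1 time in Fgf7, 1 time in Fgfr3 and 2 times in Fgfrl1 and occurs in 33.8%. The TATA box (12.4% of windows) and the EBF pair (0.779%) matched in none of the 9 windows. The forkhead site (3.17% of windows) matched only in the window of Fgf10, a gene below the filter on these arrays. A match is a description of these letters and no evidence of binding.

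Of the 10 genes, 6 had a probe set called higher on the stromal arrays: the ligands Fgf1 and Fgf7 and the receptors Fgfr1, Fgfr2, Fgfr3 and Fgfrl1. No gene had a probe set called higher on the endothelial arrays. Of the 23 probe sets, 17 passed the filter (5 ligand, 12 receptor), and of these 10 were called stromal, 0 endothelial and 7 neither. The populations differed widely over the whole array, and 28.3% of all 24519 probe sets tested were called stromal and 15% endothelial. By limma at an unadjusted p under 0.05 there were 10 stromal and 3 endothelial FGF probe sets, where all probe sets gave 36.2% and 30.9%. By limma's treat test of a minimum difference there were 8 and 0, where all probe sets gave 14% and 5.66%. Counted by gene, 35.6% of 14009 genes had a probe set called stromal and 19.5% one called endothelial, against 6 and 0 of the 8 FGF genes tested. The median difference over the 17 probe sets was 1.68, and 0.15 over all probe sets tested. Probe sets that pass only through a single population had to differ. Among the 10 called, Fgf7 1438405_at and Fgfr1 1424050_s_at passed through the 4 stromal arrays alone. Fgf1 1423136_at also had an endothelial mean below the 40th percentile, although endothelial 2 lay above its own. The call split over all probe sets depends on scaling. As deposited 65.4% of calls were stromal, 53% after a second quantile normalization (median difference -0.09) and 59.9% after cyclic loess (median 0.04). The FGF counts of 10 and 0 were the same under both.

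**Figure D1:**
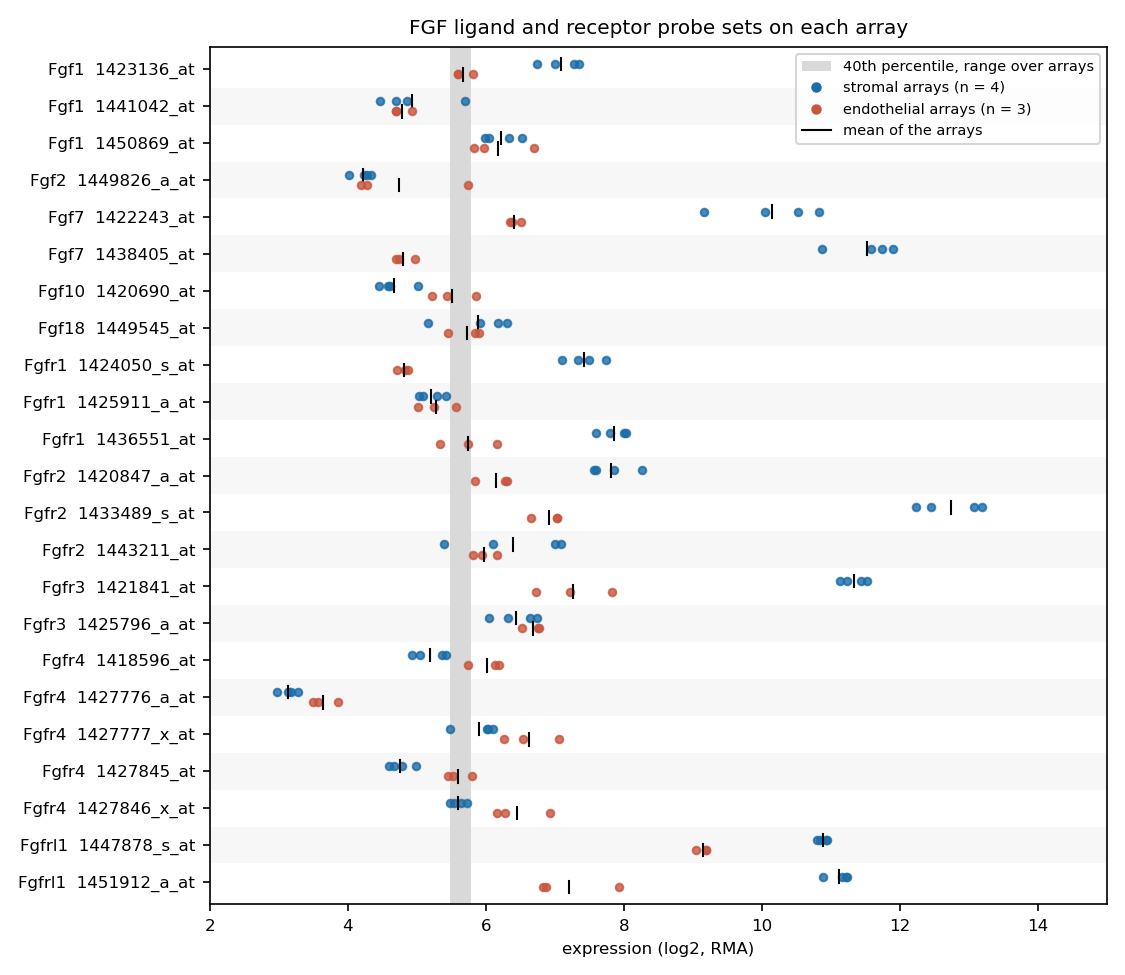
Log2 expression level of each FGF ligand and receptor probe set (rows) on each of the 4 stromal and 3 endothelial arrays (points), with a tick at each mean and a grey band for the range of the arrays' 40th percentiles (5.48 to 5.79). For both Fgf7 probe sets and for 1433489_s_at of Fgfr2 the populations lie far apart, while for Fgf18 they overlap.

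Fgf7, which encodes keratinocyte growth factor, a ligand of the IIIb form of FGFR2, had the largest difference of any FGF ligand or receptor. By probe set 1438405_at it lay at 10.87, 11.89, 11.74 and 11.59 on stromal 1 to 4 and at 4.97, 4.70 and 4.74 on endothelial 1 to 3. The populations did not overlap, and the endothelial values lay below the 40th percentile. The means were 11.5 ± 0.45 (SD, n = 4) and 4.802 ± 0.15 (n = 3), a difference of 6.72 (95% interval 6.11 to 7.33, limma adjusted p = 5.72e-07) whose size the floor of the arrays limits. By 1422243_at Fgf7 lay at 10.83, 9.17, 10.05 and 10.52 on the stromal and 6.35, 6.51 and 6.38 on the endothelial arrays. All stromal arrays were again above all endothelial arrays, and the difference of 3.73 corresponds to 13.2-fold (7.32 to 23.9, limma adjusted p = 8.06e-05). The pair of probe sets ordered the stromal arrays differently: stromal 1 was the highest by 1422243_at and the lowest by 1438405_at.

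Fgf1 encodes acidic FGF, a ligand of all FGF receptor forms that lacks a classical secretion signal. Its probe sets gave different answers. By 1423136_at it lay at 6.999, 7.28, 6.75 and 7.35 on the stromal and 5.61, 5.81 and 5.61 on the endothelial arrays. This difference of 1.42 (0.95 to 1.89) without overlap was called, with a limma adjusted p of 0.00064. By 1450869_at the values were 5.99, 6.34, 6.05 and 6.53 against 6.70, 5.84 and 5.98. Here endothelial 1 was the highest of all arrays and the populations overlapped, with a difference of 0.05 (-0.54 to 0.65, limma adjusted p = 0.866). The third probe set, 1441042_at, was below the filter, at 4.47 to 5.70 on the stromal and 4.71 to 4.93 on the endothelial arrays. The Fgf1 call therefore holds for 1 of 3 probe sets, and the mean of its probe sets gave a difference of 0.54, under the size limit.

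The other 3 ligands were not called. Fgf18, a regulator of cartilage and bone growth, lay at 5.16 to 6.31 on the stromal and 5.45 to 5.90 on the endothelial arrays by 1449545_at. These ranges overlapped, and the difference of 0.16 had an interval from -0.53 to 0.85 (limma adjusted p = 0.655), which leaves differences of up to that size undetected in either direction. Fgf2, basic FGF, a mitogen of mesenchymal cells, was below the filter by its only probe set, 1449826_a_at. It lay at 4.01 to 4.34 on the stromal arrays and at 5.74, 4.29 and 4.19 on endothelial 1 to 3, so endothelial 1 alone reached its 40th percentile. Fgf10, a mesenchymal ligand of epithelial FGFR2 like FGF7, was also below the filter, at 4.45 to 5.02 on the stromal and 5.23 to 5.86 on the endothelial arrays by 1420690_at. Low probe sets as a class sat lower on the stromal arrays: the 10426 below the filter had a median difference of -0.51, with quartiles of -0.76 and -0.24. Against these, Fgf2 stood at -0.52 and Fgf10 at -0.84, and neither was tested.

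Fgfr2 had the largest difference among the receptors. FGFR2 binds FGF7 and FGF10 in its IIIb form and acts in the osteoblast lineage in its IIIc form. By 1433489_s_at it lay at 13.08, 12.45, 12.24 and 13.19 on stromal 1 to 4 and at 6.66, 7.04 and 7.04 on endothelial 1 to 3. The populations were far apart, at 12.7 ± 0.47 (n = 4) and 6.91 ± 0.22 (n = 3), which corresponds to 56.9-fold (36.5 to 88.8, limma adjusted p = 1.46e-06). By 1420847_a_at the values were 8.27, 7.56, 7.60 and 7.86 against 5.85, 6.30 and 6.28, again without overlap. This probe set gave a smaller difference, 3.2-fold (2.2 to 4.66, limma adjusted p = 0.000561), and by treat its adjusted p was 0.0516. The third, 1443211_at, ranged from 5.39 to 7.09 on the stromal arrays, around the endothelial values of 5.82 to 6.16, with a difference of 0.42 (-0.52 to 1.36, adjusted p = 0.393). Which splice form each probe set detects is not given in the sources used here, so the IIIb and IIIc forms cannot be told apart.

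Fgfr3, which encodes a receptor that restrains growth of cartilage, was called by 1 of its 2 probe sets. By 1421841_at it lay at 11.44, 11.14, 11.23 and 11.52 on the stromal and at 6.72, 7.83 and 7.22 on the endothelial arrays. The stromal arrays lay close together and above every endothelial array, by 16.9-fold (10.9 to 26.1, limma adjusted p = 8.58e-06). By 1425796_a_at it lay at 6.05 to 6.74 on the stromal and 6.53 to 6.77 on the endothelial arrays, which overlapped. That difference was -0.25 (-0.75 to 0.26, limma adjusted p = 0.344).

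Fgfr1, the FGF receptor typical of mesenchymal cells, was called by both of its tested probe sets. By 1436551_at it lay at 8.003, 7.80, 7.59 and 8.04 on the stromal and at 5.34, 5.74 and 6.16 on the endothelial arrays. The populations did not overlap, and the difference was 2.11 (1.56 to 2.66, limma adjusted p = 0.000164), with endothelial 1 below its 40th percentile, so that the floor limits its size. By 1424050_s_at it lay at 7.33, 7.49, 7.75 and 7.11 against 4.72, 4.88 and 4.84, with the endothelial values below the 40th percentile. The difference was 2.61 (2.15 to 3.07, limma adjusted p = 1.82e-05). The third probe set, 1425911_a_at, was below the filter at 5.03 to 5.43 and 5.02 to 5.57.

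Fgfrl1 encodes a receptor-like protein that binds FGFs and heparan sulfate but lacks the intracellular tyrosine kinase domain. It was called by both probe sets, with sizes that differ. By 1451912_a_at it lay at 11.16, 11.24, 10.89 and 11.21 on the stromal and at 7.93, 6.82 and 6.87 on the endothelial arrays. Endothelial 1 was the highest of its population and still below every stromal array, and the difference corresponds to 15.1-fold (9.47 to 24, limma adjusted p = 1.57e-05). By 1447878_s_at it lay at 10.94, 10.85, 10.80 and 10.93 against 9.19, 9.05 and 9.19. The arrays of each population were within a narrow range of each other there, 3.33-fold apart (2.59 to 4.29, limma adjusted p = 4.85e-05).

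Fgfr4, the receptor through which intestinal FGF represses bile acid synthesis in liver, was the only receptor without a called probe set. On all 5 of its probe sets every endothelial array lay above every stromal array. By 1427846_x_at it lay at 5.48, 5.64, 5.54 and 5.73 on the stromal and at 6.16, 6.27 and 6.93 on the endothelial arrays, a difference of -0.86 (limma adjusted p = 0.0114). By 1418596_at the difference was -0.83 (adjusted p = 0.00999) and by 1427777_x_at -0.72 (adjusted p = 0.0377). These 3 passed the adjusted p and not the size limit. The other 2, 1427776_a_at and 1427845_at, were below the filter with differences of -0.50 and -0.84. Without endothelial 1, the difference of 1427846_x_at was -1.01 (limma adjusted p = 0.0109) and passed the size limit, so that 1 FGF probe set was then called endothelial. After cyclic loess the tested 1427846_x_at stood at -0.47 (limma adjusted p = 0.0826). Low levels share this direction over the whole array: probe sets with a mean level from 5 to 6 had a median difference of -0.56 and those from 6 to 7 one of -0.28. Among the 17 FGF probe sets tested, every stromal array lay above every endothelial array in 10 and the reverse held in 3, which are those of Fgfr4; over all probe sets tested the shares were 32.9% and 30.5%.

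**Figure D2:**
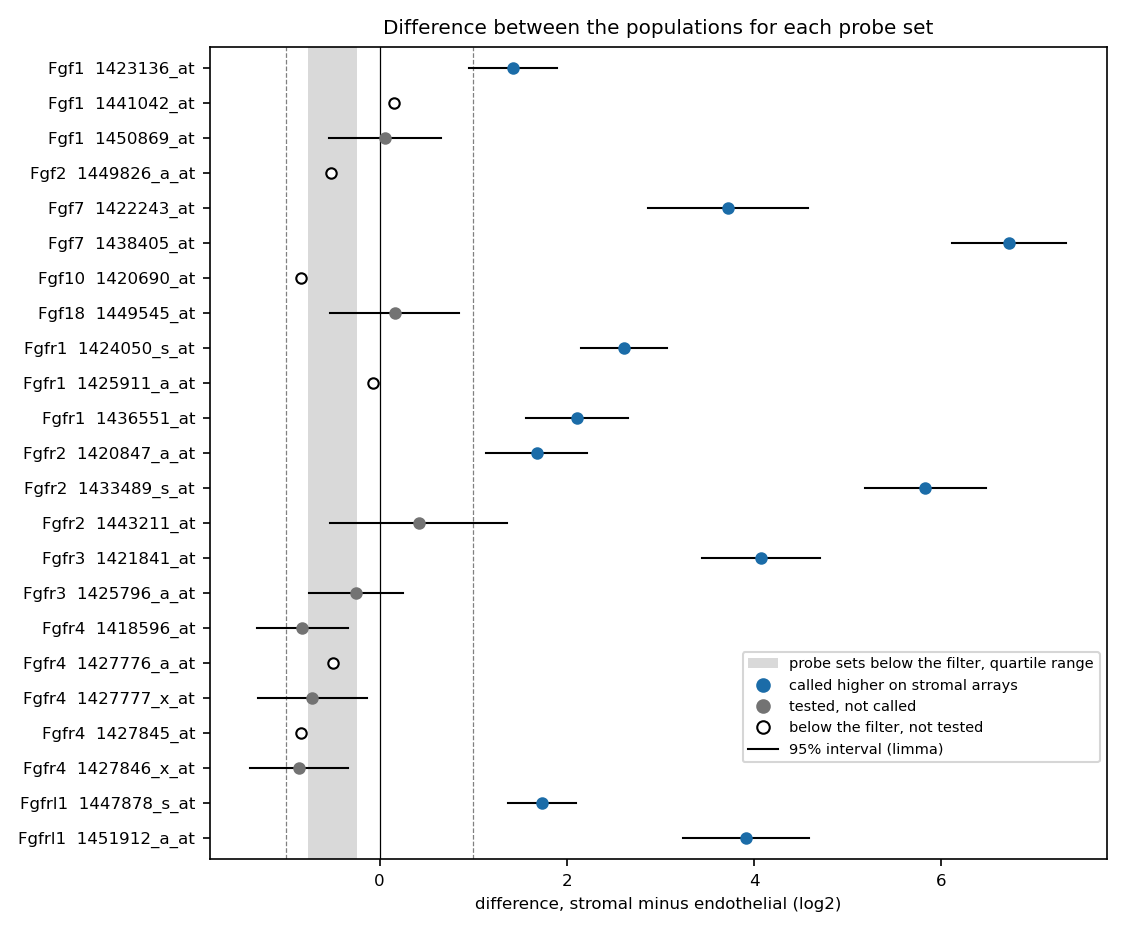
Difference in log2 level, stromal minus endothelial, for each FGF ligand and receptor probe set, with the limma 95% interval for those tested; dashed lines mark the size limit of 1 and the grey band the quartiles of probe sets below the filter (-0.76 to -0.24). The 10 called probe sets all lie to the right, and the 5 Fgfr4 probe sets lie between -0.86 and -0.50.

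**Figure D3:**
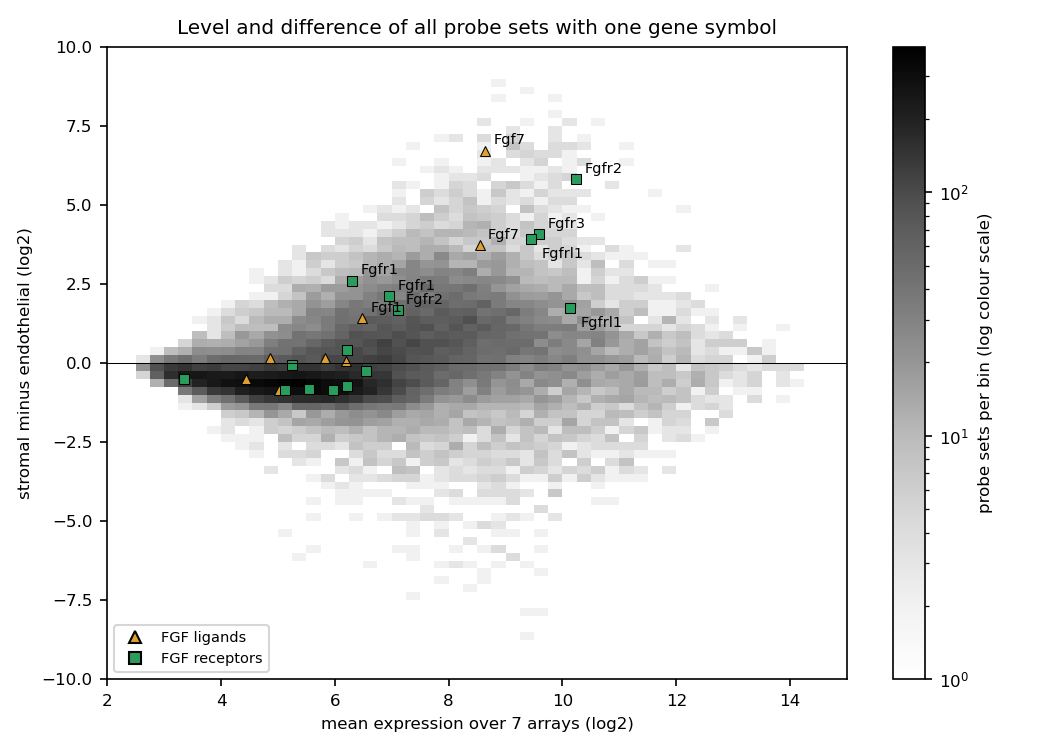
Mean log2 level over the 7 arrays against the difference, stromal minus endothelial, for all 34945 probe sets with 1 gene symbol (grey bins, darker for more probe sets on a log scale), with FGF ligands as triangles and receptors as squares. The called FGF probe sets are named. The others lie at mean levels under 7, as do some of the called ones. Probe sets with a mean level from 5 to 6 had a median difference of -0.56, and those from 6 to 7 one of -0.28 (quartiles -0.80 and 0.67).

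Leaving out single arrays changed no stromal call of an FGF ligand or receptor. Stromal 4 carried the highest megakaryocyte marker level of its population and endothelial 2 the highest reticular marker level of its own. Without both of these arrays the counts were again 10 probe sets stromal and 0 endothelial. When endothelial 2 and 3, with their brighter hybridisation controls, were left out and endothelial 1 was assumed to vary like the other arrays, the difference of Fgf1 by 1450869_at was -0.47. Without the probe sets whose suffix marks more than 1 matching transcript (_a_at, _s_at, _x_at), 5 probe sets were called stromal. These belong to Fgf1, Fgf7, Fgfr1 and Fgfr3. Every called probe set of Fgfr2 and Fgfrl1 carries such a suffix, and the only Fgfr2 probe set without one, 1443211_at, was not called.

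The other genes of the pathway were taken as lists of 64 genes, of which 61 were on the array and 48 tested. Of these, 20 were called only toward the stromal arrays, 10 only toward the endothelial arrays, 2 both ways and 16 neither way, with a median probe set difference of 0.34. Over all 14009 genes tested, 4858 were called only stromal, 2598 only endothelial and 128 both ways. By probe set, 65.4% of all calls were stromal. A stromal majority among the calls of a list is therefore also the pattern of the whole array.

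Among 13 other FGF ligands, 7 were tested, and 0 were called stromal, 4 endothelial and 3 neither, with a median of -0.95. The 4 were Fgf17 (-1.48), Fgf3 (-1.21), Fgf21 (-1.14) and Fgf22 (-1.11). Fgf3 and Fgf22 each had another tested probe set that was not called, at -0.86 and -0.68. Their endothelial means were at most 7.14, and the stromal means of Fgf17, Fgf3 and Fgf21 were below the 40th percentile. Fgf17, a ligand of the FGF8 subfamily, lay at 4.30 to 4.68 on the stromal and at 5.98, 5.90 and 5.97 on the endothelial arrays. These 4 calls depend on the arrays and the scaling: 2 were made without endothelial 1, 0 without endothelial 3 and 0 after cyclic loess. Of the intracellular FGF homologous factors, which are not secreted and bind sodium channels, 2 of 4 were tested. Fgf13 was higher on the stromal arrays by 3.24 on 1418497_at (8.45 ± 0.57 against 5.20 ± 0.18), while 1418498_at was below the filter at -0.46. On 1418497_at the endothelial values were below the 40th percentile, so it passed the filter through the stromal arrays alone and the floor limits its difference. Fgf11 was called both ways. By 1439959_at it stood at 1.94, with an endothelial mean below the 40th percentile. By 1421793_at it stood at -1.04, with a stromal mean below the 40th percentile. The floor limits both sizes. The call by 1421793_at was lost without stromal 1, endothelial 2 or endothelial 3 and under both other scalings.

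Co-receptors and extracellular partners of FGF signalling were led by adhesion molecules. Of 9 listed, 6 were tested, with 3 called stromal, 0 endothelial and 3 neither, and a median of 3.21. Cdh2, which encodes N-cadherin, a partner that stabilises FGFR1, lay at 12.45, 12.80, 12.69 and 12.88 on the stromal and 3.62, 4.02 and 4.10 on the endothelial arrays by 1418815_at. The difference was 8.79 there and 6.56 by 1449244_at, both from endothelial means below the 40th percentile. Flrt2, which encodes a transmembrane protein of a family that binds FGF receptors, was 28-fold higher (19.8 to 39.7) by 1438702_at and higher by 6.01 (1455096_at) and 3.16 (1456874_at) by its other 2 probe sets, both with endothelial means below the 40th percentile. Ncam1, which encodes a neural cell adhesion molecule that binds FGFR1, was called by 2 of its 4 tested probe sets. The differences were 4.13 by 1426865_a_at, with an endothelial mean below the 40th percentile, and 3.26 by 1426864_a_at. Of the other 2, 1439556_at stood at 1.48 with overlapping populations (limma adjusted p = 0.112), and 1450437_a_at at -0.71 with every endothelial array above every stromal array (limma adjusted p = 0.0111, under the size limit). On 1426864_a_at, endothelial 2 stood at 9.002 against 7.15 and 7.16 on endothelial 1 and 3. The klotho genes Kl and Klb, co-receptors of the endocrine FGFs, and Fgfbp1 were below the filter.

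Enzymes that build and trim heparan sulfate, the cofactor of FGF binding, were called mostly toward the stromal arrays. Of 12 listed, 10 were tested, with 7 called stromal, 1 endothelial, 1 both ways and 1 neither, and a median of 1.05. Sulf1, which encodes an extracellular sulfatase that removes 6-O-sulfates and so lowers FGF signalling, was higher on the stromal arrays by 6.13 by 1438200_at, at 12.0 ± 0.25 against 5.87 ± 0.18, and by 5.21 by 1436319_at. Its endothelial values lay at or near the floor, which limits both sizes. Other enzymes differed between their probe sets. Ext1, a chain polymerase gene, was 9.72-fold higher by 1417730_at and stood at -0.18 by 1458054_at (limma adjusted p = 0.51). Glce, the glucuronic acid epimerase gene, was 5.43-fold higher by 1428374_at, while 1425876_a_at stood at -0.68 with every endothelial array above every stromal array (limma adjusted p = 0.00824, under the size limit). Hs2st1, a 2-O-sulfotransferase gene, was called by 2 of 4 tested probe sets, at 2.99 by 1450729_at and 1.05 by 1450730_at. The other 2 stood at 0.22 (1422739_at) and 0.41 (1440905_at), with overlapping populations. On 1450729_at the endothelial values spread from 4.71 on endothelial 3 to 7.22 on endothelial 2. Ext2, the partner of Ext1, was called both ways, at 3.27 by 1460170_at and -1.07 by 1447743_x_at. Hs3st1, a 3-O-sulfotransferase gene, was higher on the endothelial arrays (-1.55), at 6.01, 8.32 and 7.14 against 5.33 to 5.94 on the stromal arrays. The endothelial count of this list, both ways included, was 2; it was 0 without stromal 1 and 1 without stromal 4 or without any of the 3 endothelial arrays in turn.

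Adaptors next to the receptor were called in both directions, as 2 genes stromal, 3 endothelial and 4 neither of 9 tested, with a median of -0.54. Plcg1, which encodes a phospholipase that binds the activated receptor, was 5.08-fold higher on the stromal arrays by 1435149_at. Its other probe sets, 1450360_at (-1.06) and 1442963_at (-0.65), were below the filter, with every endothelial array above every stromal array. Sos1, which encodes an exchange factor for RAS, was 3.55-fold higher on the stromal arrays by 1434389_at. The other Sos1 probe sets were below the filter, with differences from -0.68 to 0.22. Under both other scalings 1 gene was called stromal in place of 2. Higher on the endothelial arrays were Ptpn11, which encodes the phosphatase SHP2, Cbl, a ubiquitin ligase gene, and Grb2, an adaptor gene. Ptpn11 was 14.2-fold higher there by 1427699_a_at and 8.13-fold by 1451225_at, and stood at -1.17 by 1421196_at, also called. Cbl was 4.1-fold higher by 1434829_at and 2.5-fold by 1455886_at, and stood at -1.18 by 1450457_at, also called. Grb2 was 2.75-fold higher by 1449111_a_at, while 1418508_a_at stood at -0.89 and was not called. All 5 products also act downstream of other receptor tyrosine kinases. Ptpn11 lay at 7.51 to 8.37 on the stromal and 11.3 to 12.3 on the endothelial arrays by 1427699_a_at, without overlap.

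Feedback inhibitors and target genes of FGF and ERK signalling were called mostly toward the stromal arrays. Of 14 listed, 12 were tested, with 7 called stromal, 1 endothelial and 4 neither, and a median of 1.24. Il17rd, which encodes the FGF signalling inhibitor SEF, was 16.5-fold higher (12 to 22.6), at 9.86 ± 0.27 against 5.82 ± 0.06 by 1429893_at, while 1452471_at stood at 0.35 and was not called. Etv5, which encodes an ETS transcription factor induced by FGF signalling, was higher by 3.50 on 1428142_at, from an endothelial mean below the 40th percentile. Its other probe sets were below the filter, 1420998_at at -0.87 with every endothelial array above every stromal array and 1450082_s_at at -0.36. Spred1, which encodes an inhibitor of RAS and ERK signalling, was called by all 6 of its tested probe sets, with differences from 1.23 by 1428777_at to 3.34 by 1460116_s_at, both from endothelial means below the 40th percentile. On 1 of the 6, 1423162_s_at (1.25), the populations overlapped. Spry1, which encodes a Sprouty inhibitor, was 6.69-fold higher by its only probe set, at 12.26 to 13.00 on the stromal and 9.78 to 9.93 on the endothelial arrays. Dusp5, which encodes a nuclear ERK phosphatase, was higher on the endothelial arrays (-1.02), a call lost without stromal 1, stromal 4 or endothelial 2. Many of these genes respond to other growth factors as well. Of the epithelial splicing regulators that produce the IIIb receptor forms, Esrp1 was called endothelial (-1.32) and Esrp2 neither way. Esrp1 lay at 4.51 to 4.83 on the stromal and 5.87 to 6.02 on the endothelial arrays. Its stromal values were below the 40th percentile, so it passed the filter through the endothelial arrays alone. Neither Esrp1 nor Esrp2 was called without endothelial 1, without endothelial 3 or after cyclic loess. Both were called endothelial after the second quantile normalization. Epithelial markers averaged 5.38 to 5.50 and 6.33 to 6.86 on the same arrays.

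**Figure D4:**
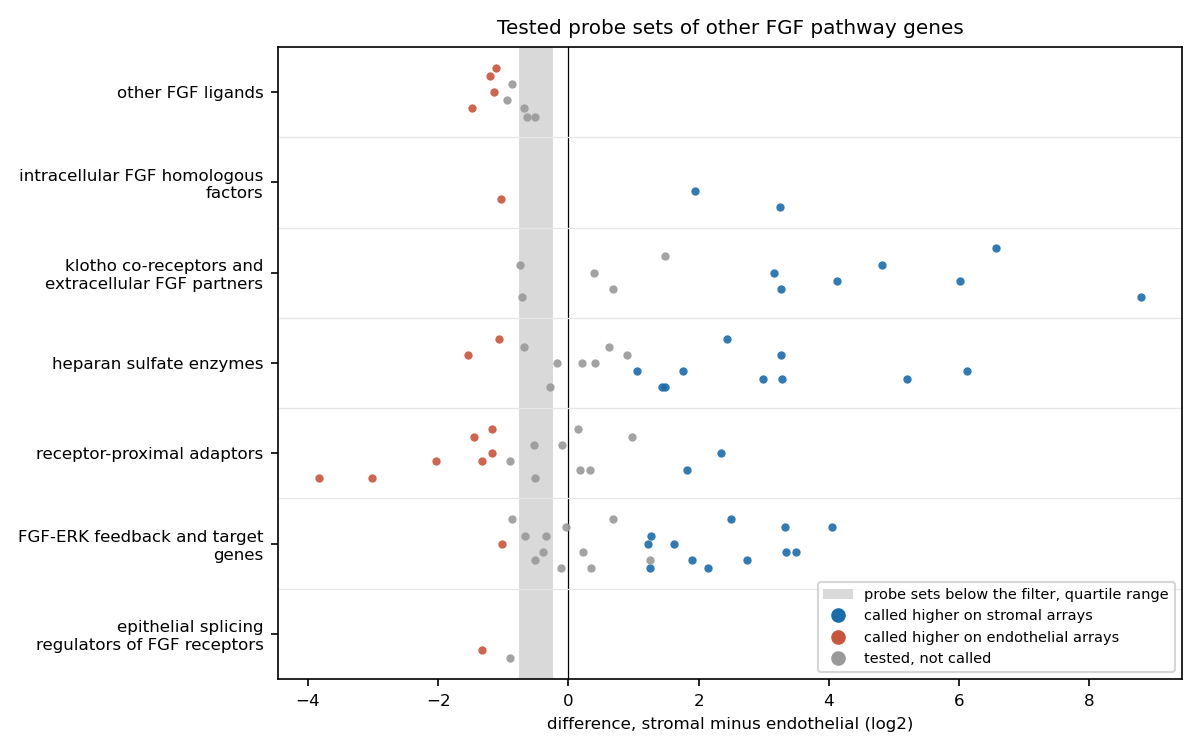
Difference in log2 level, stromal minus endothelial, of each tested probe set (points, spread vertically for legibility) in each FGF pathway list (rows), coloured by call, with a grey band for the quartiles of probe sets below the filter (-0.76 to -0.24). The points of the other FGF ligands all lie below 0, and those called stromal reach 8.79 for Cdh2 among the co-receptors and partners.

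Over the 7 arrays, the genes whose centred values lay nearest to Fgf7 by 1438405_at were Foxc1, Bicc1 and Lox. Their root mean square differences from it were 0.175, 0.275 and 0.283 on the log2 scale. Their own differences between the populations were 6.85, 6.99 and 6.58, which the choice by distance made similar to that of Fgf7. Foxc1 encodes a forkhead transcription factor of reticular stroma, Bicc1 an RNA-binding protein and Lox a collagen and elastin crosslinking enzyme.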

How the data were processed

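Gene expression in 4 stromal and 3 endothelial samples was measured on 7 arrays. The deposited values are log2 expression levels. Per the submitters' processing notes, the authors used RMA in Affymetrix Expression Console 1.1; this method subtracts background, sets all arrays to common quantiles and combines the probes of each set. Which arrays were normalized together is not given in the sources used here. Of 45101 probe sets, 34945 had 1 symbol in a platform annotation of 2016, 932 several, 9160 none and 64 were controls. All 23 symbols of the FGF probe sets matched RefSeq's gene table. Precision is limited by how few arrays there are.

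Every probe set with 1 symbol and 3 or more arrays above the 40th percentile was fitted in R 4.3.3 by lmFit and eBayes of limma 3.58.1, without covariates. p-values were adjusted by Benjamini-Hochberg over all 24519 tested. A list gene was counted in a direction if any of its probe sets was called. Marker levels are means of log2 levels, with the brightest probe set of each gene. The procedure was tested on simulated data for bias, interval coverage, false calls and sign. These checks replaced a first limit on the share of simulated differences recovered, after that limit was not met. The genes, lists and rules were chosen with earlier results of these data known. Named were all FGF probe sets, up to 4 called genes per pathway list and direction, genes called both ways, and the 3 genes nearest to the FGF gene with the largest difference. Genes described as not called are named to account for the list. Alternatives (23 settings) varied the filter, scaling, model, probe set choice, call rule, blocks and arrays left out.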

Additional observations from a re-analysis of the deposited data

Results flagged for a closer look

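In 72 probe sets of the FGF ligands, receptors and pathway genes, 1 stromal array stood apart from the other 3 in 3 cases, by Dixon's test at the 95% level. Chance flags about 1 in 20 groups. Fgfr4 by 1427777_x_at lay at 5.477 on stromal 1 against 6.02 to 6.10 on stromal 2 to 4 (gap over range 0.871). Ndst2 by 1417931_at lay at 9.21 on stromal 1 (0.884). Esrp1 by 1454681_at lay at 4.835 on stromal 4 against 4.51 to 4.54 on stromal 1 to 3 (0.898). Without stromal 1, the Fgfr4 difference was -0.57 with a limma adjusted p of 0.0876.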

How the results depend on the processing

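Of 351 differences of FGF probe sets under the alternatives, 336 kept their direction and their side of the threshold, 3 were no longer called, 4 were newly called and 8 changed sign. All 8 changes of sign were in Fgf1 1450869_at, which was never called (0.05 as reported): -0.054 with array weights, -0.046 with the replicate number as a block, -0.47 with the hybridisation-control block and within the 5 arrays of like control level, and -0.21 without stromal 4 and endothelial 2. With 1 array left out it ranged from -0.11 (without endothelial 2) to 0.32 (without endothelial 1), and it changed sign also without stromal 4 (-0.046) or endothelial 3 (-0.041). Fgf1 1423136_at was not called with the mean of its probe sets or by treat (adjusted p = 0.15), nor Fgfr2 1420847_a_at by treat (0.0516). The count called stromal, 10, was within 1.5 times of that in 20 of 21 settings, treat (8) included, and 5 without the suffixes for several transcripts. The endothelial count, 0, was 3 with the adjusted p alone and between 0 and 1 with 1 array left out. The pathway count of 32 was 21 when probe sets were averaged per gene and 17 with treat.

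Same-numbered arrays correlated at -0.07, 0.00 and 0.11 in their deviations, and differently numbered ones at -0.09 to 0.09. So few arrays cannot show whether the replicate numbers pair them. With the replicate block the FGF counts were 10 and 0 and the pathway count 31. Signals near the floor limit the small differences, and the array number limits all intervals.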
